A study of Mus musculus with 6 samples.

Results

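The genes described here are the calcitonin gene-related peptide (CGRP) and adrenomedullin system of mouse lung smooth muscle cells. It has 6 members out of 17023 genes in the gene table: the peptide genes Calcb and Adm, the receptor gene Calcrl, and the receptor partner genes Ramp1, Ramp2 and Ramp3. The members were chosen by their known roles with earlier results of these data in view, in which Calcb had one of the largest differences between the groups. Their values in that comparison are therefore given as a description, without a test. RNA was sequenced from primary wild-type lung smooth muscle cells after 5 days in transwell plates, in which a porous insert separates cells. In the co-culture group (3 libraries, numbered 1 to 3) the plates also held mouse airway epithelial cells, and in the control group (3 libraries, numbered 4 to 6) they did not. The labels name no age, sex or strain of mouse and do not say if libraries of a group are separate cultures or animals, so their spread may be technical.

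The libraries held 17496056 to 18496623 estimated counts, and at this depth Ramp1 rests on 14 counts or fewer in each library and Calcb on 16 or fewer in each co-culture library. Control library 4 differed from controls 5 and 6 in a chi-square over its degrees of freedom, at 96.6 and 105 over genes, against 3.29 between controls 5 and 6 and 4.12 to 6.78 among co-culture libraries. Co-culture libraries were at 48 to 59.3 from controls 5 and 6 and at 116 to 128 from control 4. Control 4 was therefore further from its own group than the co-culture libraries were from controls 5 and 6.

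Both peptides belong to the calcitonin family and act through one receptor protein, the product of Calcrl, which needs a receptor activity-modifying protein (Ramp) to reach the cell surface. The partner sets what is bound: with Ramp1 the complex is a CGRP receptor, and with Ramp2 or Ramp3 it is an adrenomedullin receptor. The receptors couple to the stimulatory G protein Gs and raise cyclic AMP, which relaxes smooth muscle. CGRP is best known as a neuropeptide of sensory nerves and of the neuroendocrine cells of the airway epithelium, and adrenomedullin as a vasodilator made by vascular and other mesenchymal cells.

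Calcb makes the beta form of CGRP and its neighbour Calca the alpha form. Their coding sequences are shown because they are close enough to bear on how reads were assigned. The most similar gap-free stretch of both coding sequences in GENCODE M21 (GRCm38) has 170 bases, with 11 mismatches (93.5% identity), and it holds the mature peptide. The Calcb stretch lies on chromosome 7 between 114720187 and 114722116 on the plus strand, and the Calca stretch on chromosome 7 between 114632458 and 114634495 on the minus strand. Each spans an intron. Capitals mark the mismatched bases.
Calcb: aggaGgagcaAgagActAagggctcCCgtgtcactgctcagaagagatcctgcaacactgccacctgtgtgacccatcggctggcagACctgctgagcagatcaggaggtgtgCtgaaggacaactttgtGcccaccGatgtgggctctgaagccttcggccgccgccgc
Calca: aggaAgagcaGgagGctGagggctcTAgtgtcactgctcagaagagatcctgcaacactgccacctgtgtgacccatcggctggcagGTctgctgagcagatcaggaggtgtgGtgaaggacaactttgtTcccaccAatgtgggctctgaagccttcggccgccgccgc
The longest run of identical bases between any transcripts of both genes is 61 bases. How the counting program split reads from this stretch is not stated in the labels, so the value of each gene carries that uncertainty.

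Calcb (gene ID 116903, chromosome 7, 114716555 to 114723368, RefSeq GRCm38.p6, as for all gene coordinates here) had 7, 16 and 10 estimated counts in co-culture libraries 1, 2 and 3, against 297, 180 and 137 counts in control libraries 4, 5 and 6. Every co-culture library was far below every control library, and control library 4 was the highest. In CPM, counts scaled to a common library size with TMM factors, Calcb averaged 0.594 ± 0.264 CPM in co-cultured cells and 11.9 ± 5.72 CPM in controls (SD, n = 3 each). The log2 fold change, co-culture over control, was -4.31 ± 0.47 (SE). Without control library 4, which stood apart from the other controls in all genes, it was -3.86. Calca had 11, 11 and 6 counts in co-culture, against 22, 12 and 17 counts in controls. It did not pass the test at a log2 fold change of -0.95 ± 0.38 (edgeR adjusted p = 0.127). Summed over the 3 libraries, Calcb had 33 counts in co-culture and 614 counts in controls.

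**Figure D1:**
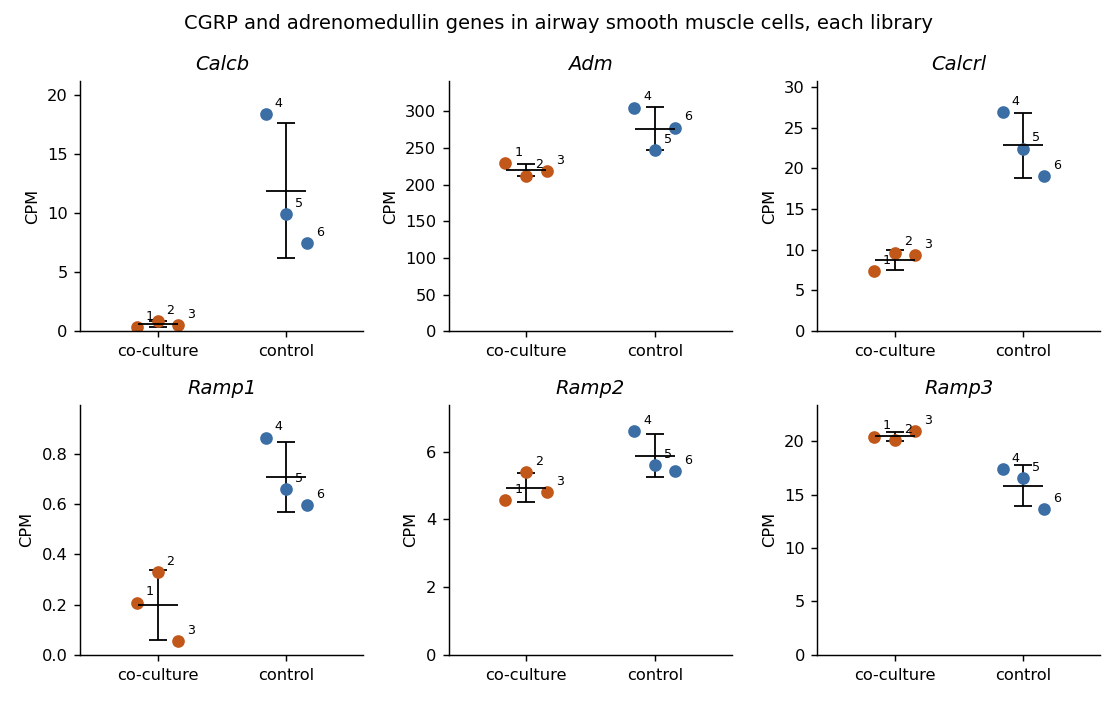
Level of each member in every library (y axis, CPM with TMM factors, from 0), co-culture on the left and control on the right of each panel; numbers beside points are library numbers, bars the mean ± SD of 3 libraries. Calcb and Calcrl lie far lower in all co-culture libraries than in any control library, and Ramp1 lies lower on few counts. Adm and Ramp2 lie slightly lower, and Ramp3 is higher in co-culture, with means of 20.5 and 15.8 CPM.

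Adm (gene ID 11535, chromosome 7, 110627657 to 110629820) encodes the precursor of adrenomedullin and had the highest level per length of the members, given further on. It had 4398, 3845 and 4082 counts in co-culture 1 to 3, against 4932, 4479 and 5110 counts in control libraries 4 to 6. Adm averaged 220 ± 8.56 CPM in co-cultured cells and 276 ± 29.1 CPM in controls (SD, n = 3 each), a log2 fold change of -0.33 ± 0.09 (SE). The groups did not overlap in CPM, but the gap is small and depends on the scale. In computed TPM, co-culture libraries had 375, 344 and 373 and control libraries 317, 417 and 479. The groups overlapped there through control library 4 alone. In CPM without TMM factors they did not.

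Calcrl (gene ID 54598, chromosome 2, 84330626 to 84425405), the receptor for both peptides, had 142, 175 and 174 counts in co-culture libraries, against 436, 407 and 351 counts in control libraries. Every co-culture library was far below every control library, and the groups did not overlap on any scale used. Its mean was 8.78 ± 1.22 CPM in co-cultured cells and 22.8 ± 3.95 CPM in controls (SD, n = 3 each), with a log2 fold change of -1.38 ± 0.16 (SE). In bulk samples like these, fewer cells of a type and less RNA per cell cannot be told apart.

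Ramp1 (gene ID 51801, chromosome 1, 91179822 to 91225196), the partner that makes the CGRP receptor, had few counts. It had 4, 6 and 1 counts in co-culture libraries, against 14, 12 and 11 counts in control libraries. All control libraries exceeded the co-culture libraries, but the whole difference rests on 11 counts in co-culture and 37 counts in controls. The log2 fold change was -1.80 ± 0.49 (SE). Ramp1 passed the filter on low counts only through the control libraries, so a gene that passed in this way had to differ.

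Ramp2 and Ramp3 form the adrenomedullin receptors. Ramp2 (gene ID 54409, chromosome 11, 101246334 to 101248250) had 88, 98 and 90 counts in co-culture libraries, against 107, 102 and 100 counts in control libraries. Its mean was 4.93 ± 0.425 CPM in co-cultured cells and 5.89 ± 0.634 CPM in controls (SD, n = 3 each), a log2 fold change of -0.25 ± 0.13 (SE). Co-culture library 2, at 5.41 CPM, lay just under control library 6, at 5.43 CPM, and without TMM factors the groups overlapped. Ramp3 (gene ID 56089, chromosome 11, 6658506 to 6677478) was the one member that was higher in co-culture. It had 392, 364 and 391 counts in co-culture libraries, against 281, 300 and 251 counts in control libraries. The mean was 20.5 ± 0.416 CPM in co-cultured cells and 15.8 ± 1.95 CPM in controls (SD, n = 3 each), with a log2 fold change of 0.37 ± 0.11 (SE), and the groups did not overlap on any scale used.

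All 6 members passed the filter on low counts, Calcb and Ramp1 only with the control libraries. In CPM with TMM factors the groups did not overlap for 6 members, 5 lower and 1 higher in co-culture. Over all 12936 genes tested, the groups did not overlap for 42.8%. Nothing is read from the members' count, since the same comparison was in view when they were chosen. Without TMM factors this held for 5 members, with Ramp2 overlapping, and in computed TPM for 4, with Adm and Ramp2 overlapping. Both overlaps in TPM came from control library 4 alone. Ramp2 was at 14.08, 16.45 and 15.43 TPM in co-culture libraries and at 12.92, 17.84 and 17.6 TPM in control libraries 4, 5 and 6.

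**Figure D2:**
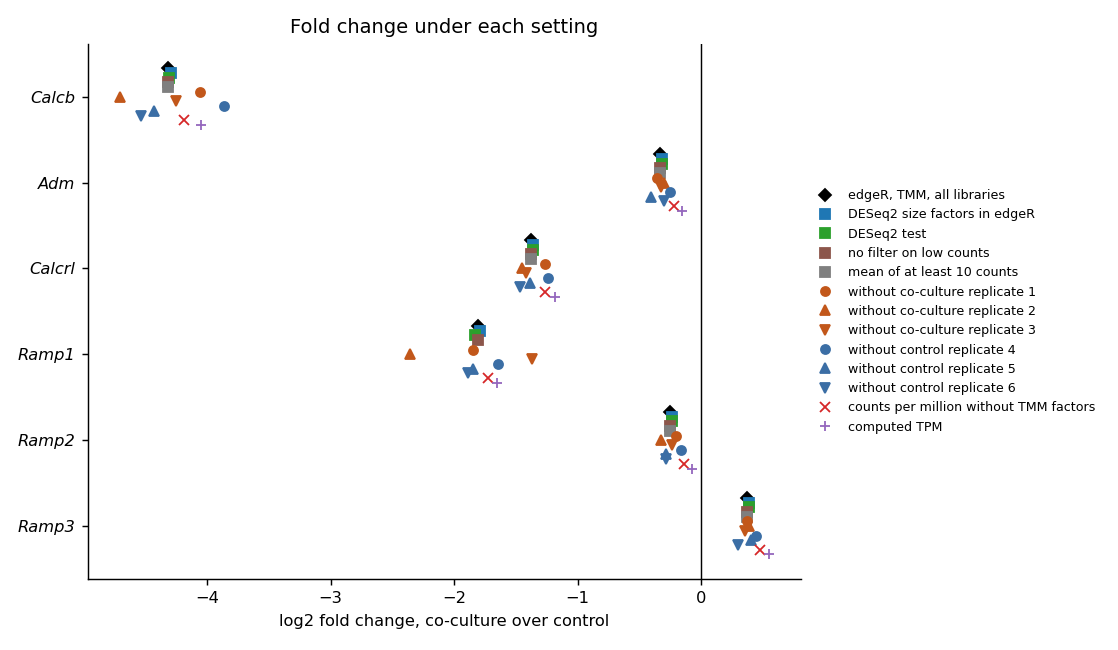
Log2 fold change, co-culture over control (x axis), of each member under the main setting (black diamonds), other scalings, tests and filters, and with each library left out. Calcb ran from -4.70 to -3.86 with a library left out, whereas Adm, Ramp2 and Ramp3 stayed within 0.6 of 0 throughout.

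Per length, the members kept much the same order in both groups, with Calcb as the exception. FPKM corrects for length and library size and was computed here, for controls too, with lengths implied by the co-culture values. Adm was at 213, 197 and 203 FPKM in co-culture 1 to 3 and 241, 223 and 249 FPKM in control libraries 4 to 6. That put Adm at percentile 97.1 of tested genes in co-culture and 97.3 in controls. Ramp3 came next in order, at 22.3, 21.9 and 22.8 FPKM in co-culture and 16.2, 17.6 and 14.4 FPKM in controls. Below Ramp3 came Ramp2, at 7.99, 9.41 and 8.39 FPKM in co-culture and 9.83, 9.52 and 9.13 FPKM in controls. The ranges of these 3 genes did not touch each other in either group.

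Calcrl, at 1.71, 2.23 and 2.15 FPKM in co-culture and 5.30, 5.03 and 4.24 FPKM in controls, was below Ramp2 in every library. In co-culture Calcb lay below Calcrl, at 0.200, 0.484 and 0.294 FPKM, and overlapped Ramp1, at 0.188, 0.299 and 0.0483 FPKM. In controls Calcb reached 8.598, 5.295 and 3.94 FPKM and overlapped Calcrl, while Ramp1, at 0.666, 0.580 and 0.520 FPKM, was lowest in every control library. The lengths implied for Calcb and Ramp1 differed between libraries with the transcripts that reads were assigned to, from 1.604 to 3.081 kilobases for Calcb. The authors' deposited mean for Calcb was 0.327 FPKM in co-culture and 7.64 FPKM in controls, and for Ramp1 0.177 FPKM in co-culture and 0.297 FPKM in controls. The order of these genes within a group is the same with those means.

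**Figure D3:**
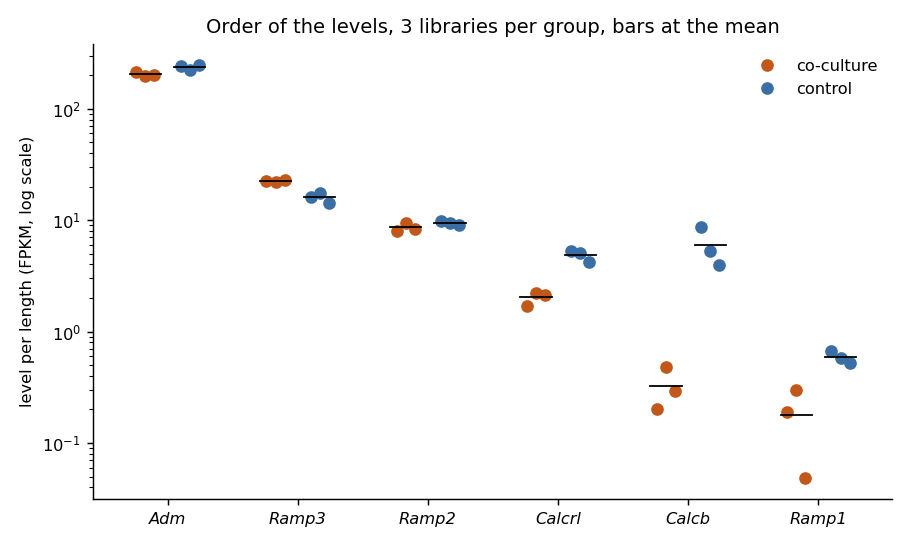
Level per length of each member (y axis, FPKM on a log scale) in the 3 co-culture libraries (orange, left) and the 3 control libraries (blue, right), with the mean as a bar. Adm is highest throughout, and Calcb sits beside Calcrl in controls and beside Ramp1 in co-culture.

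Within each library the partners were uneven. Ramp3 made up 73.2%, 69.3% and 73.0% of the summed Ramp FPKM in co-culture libraries, against 60.7%, 63.5% and 59.8% in control libraries. Ramp2 made up 26.2%, 29.8% and 26.8% in co-culture, against 36.9%, 34.4% and 38.0% in controls. Ramp1 stayed under 1% of the sum in co-culture and at 2.10% to 2.50% in controls, with the uncertain length named above. From the authors' deposited means, Ramp1 was 0.568% of the Ramp sum in co-culture and 1.15% in controls. Ramp3 thus exceeded Ramp2 in all 6 libraries, by 2.79, 2.33 and 2.72 times in co-culture and 1.65, 1.84 and 1.57 times in controls. The summed Ramp FPKM was 17.9, 14.2 and 14.6 times the Calcrl FPKM in co-culture libraries and 5.03, 5.50 and 5.66 times in control libraries. These ratios do not depend on the library scaling, and no control library reached the lowest co-culture library.

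**Figure D4:**
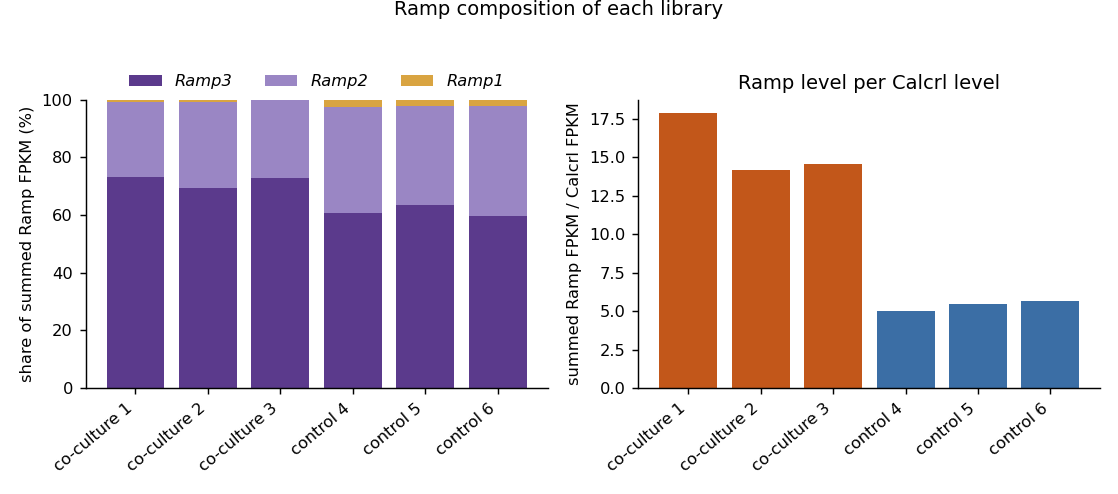
Left, share of each Ramp gene in the summed Ramp FPKM (y axis, %) of every library; right, summed Ramp FPKM divided by Calcrl FPKM. Ramp3 holds the largest share in all 6 libraries, and the ratio to Calcrl is 14.2 or more in co-culture libraries and 5.66 or less in controls.

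At the transcript level, Adm and Ramp2 had 1 RefSeq transcript each with reads. Ramp3 reads went to NM_019511 at 93.5% to 98.5% in co-culture and 92.9% to 95.8% in controls. Calcrl reads were divided between NM_018782 and XM_006499918, and the share of NM_018782 was 54.6%, 17.3% and 68.2% in co-culture and 46.6%, 85.8% and 70.8% in controls. That share varied as much within a group as between the groups. For Calcb, NM_054084 held 26.0%, 27.1% and 0% of the counts in co-culture and 34.6%, 18.8% and 40.9% in controls, and in control library 6 a further 31.8% went to XM_006507212. For Ramp1, NM_016894 held 35.0%, 42.2% and 0% of the few counts in co-culture and 100% in each control library. These shares are the authors' estimates.

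The bases just upstream of the annotated gene are shown for the most abundant member, the receptor and the member that was higher in co-culture, from RefSeq's start-site windows on GRCm38.p6. Windows were matched for 4 of the members, Adm, Calcrl, Ramp1 and Ramp3. Sequences read 5′ to 3′ along the gene. Capitals mark matches, on either strand, to the GC box GGGCGG or to GCGTG, the core bound by the aryl hydrocarbon receptor.
Adm, chr7:110627407-110627656, plus strand: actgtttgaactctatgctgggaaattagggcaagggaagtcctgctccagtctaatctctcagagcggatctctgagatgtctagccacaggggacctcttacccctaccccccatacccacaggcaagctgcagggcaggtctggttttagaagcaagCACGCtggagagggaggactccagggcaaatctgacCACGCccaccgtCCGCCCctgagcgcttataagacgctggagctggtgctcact
Calcrl, chr2:84425406-84425516, minus strand: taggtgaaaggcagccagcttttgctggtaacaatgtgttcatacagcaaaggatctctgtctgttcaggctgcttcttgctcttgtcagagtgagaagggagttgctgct
Ramp3, chr11:6658283-6658505, plus strand: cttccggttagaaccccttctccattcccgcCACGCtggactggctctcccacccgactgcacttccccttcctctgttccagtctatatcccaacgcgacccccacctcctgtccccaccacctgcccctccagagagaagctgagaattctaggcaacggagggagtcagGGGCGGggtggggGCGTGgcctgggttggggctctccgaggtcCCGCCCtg
The Adm stretch of 250 bases held 1 GC box and 2 matches to GCGTG, where 32.7% and 28.2% of all windows of that length hold at least one. The Ramp3 stretch of 223 bases held 2 of each, and 28.9% and 25.4% of windows of that length hold at least one. The Calcrl stretch of 111 bases held neither, where 11.7% and 12.2% of windows of that length hold at least one. The Ramp1 stretch of 250 bases, not shown, also held neither. TGACG, the half-site of the cyclic AMP response element, and ACGTG, the core bound by hypoxia-inducible factors, were searched in the same way and had no match in these 3 stretches or in that of Ramp1. They occur in 17.8% and 16.6% of windows of 250 bases, 15.2% and 14.6% of 223 bases, and 6.01% and 6.74% of 111 bases. A match is a description of letters and not a bound site.

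Each member's nearest genes in pattern were those with the smallest root mean square difference of log2 CPM over the 6 libraries, each gene centred on its own mean. For Calcb these were Nwd2 (0.319), Inmt (0.429) and Lpl (0.453), which is lipoprotein lipase. Nwd2 averaged 0.144 ± 0.0665 CPM in co-cultured cells and 3.44 ± 0.813 CPM in controls (SD, n = 3 each). It passed the filter on low counts only through the control libraries, so it had to differ between the groups. For Calcrl they were Rarb (0.0724), a retinoic acid receptor, Tigd2 (0.0938) and Slc35g1 (0.112). Rarb averaged 9.83 ± 1.91 CPM in co-cultured cells and 26.3 ± 4.34 CPM in controls. For Ramp3 they were Ntpcr (0.0353), Rps6kb2 (0.0370) and Zfp950 (0.0467), for Adm Bmt2 (0.0283), Spcs3 (0.0285) and Utp18 (0.0381), for Ramp2 Ect2 (0.0281), Galm (0.0377) and Haus4 (0.0393), and for Ramp1 Plaat1 (0.218), Ube2ql1 (0.236) and Cdh19 (0.281). The distances for Calcb are the largest of the 6 members. Plaat1, at 0.394 ± 0.206 CPM in co-cultured cells and 0.920 ± 0.222 CPM in controls, passed the filter on low counts only with the control libraries.

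The other genes of the pathway came from 10 lists of 121 genes, of which 93 could be tested, 14 rose and 24 fell in co-culture. A gene is said to have risen or fallen where edgeR's quasi-likelihood test gave a Benjamini-Hochberg adjusted p under 0.05 over all genes tested. That is 15.1% higher and 25.8% lower, beside 10.3% higher and 10.3% lower among all genes tested. The median log2 fold change was -0.11 in the lists and -0.04 among all genes tested. On leaving out co-culture library 3 the number that fell was 13, and on leaving out control library 6 it was 14.

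Close relatives of the members showed no call. Of 7 other calcitonin family peptides and receptors, 3 could be tested and 0 passed by edgeR or DESeq2, with 1 at an unadjusted p under 0.05. They were Calca, Ackr3, which also scavenges adrenomedullin, and Crcp, an intracellular component of CGRP signalling. Crcp was at 19.7 ± 2.58 CPM in co-cultured cells and 19.0 ± 5.06 CPM in controls (SD, n = 3 each; edgeR adjusted p = 0.872). The calcitonin receptor gene Calcr, which also pairs with Ramps, had 0, 1 and 1 counts in co-culture and 0 counts in each control library. Of 12 other receptors known to bind Ramps, 3 could be tested and 0 passed by edgeR or DESeq2, with 1 at an unadjusted p under 0.05. The most abundant of them, the parathyroid hormone receptor Pth1r, was at 11.8 ± 0.774 CPM in co-cultured cells and 9.54 ± 1.20 CPM in controls (edgeR adjusted p = 0.124). Of 10 other Gs-coupled receptors, 4 could be tested and 0 passed by edgeR or DESeq2, with 1 at an unadjusted p under 0.05. The prostacyclin receptor Ptgir was at 15.3 ± 1.52 CPM in co-cultured cells and 17.04 ± 1.684 CPM in controls (edgeR adjusted p = 0.388).

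Genes that mature or clear the peptides moved both ways. Of 12 tested, 3 rose, 5 fell and 4 did not pass. Mme, neprilysin, a membrane protease that cleaves many small peptides, was at 127, 113 and 115 CPM in co-culture against 52.3, 48.9 and 58.0 CPM in controls. It rose by 1.16 ± 0.09 on the log2 scale (SE; edgeR adjusted p = 4.23e-04). Cpe, the carboxypeptidase that trims peptide hormones, fell to 651, 690 and 679 CPM in co-culture, against 1249, 1139 and 1119 CPM in controls (-0.80 ± 0.08, edgeR adjusted p = 0.00156). The proprotein convertases Pcsk6 (-0.91 ± 0.14, edgeR adjusted p = 0.00587) and Pcsk5 (-1.45 ± 0.27, edgeR adjusted p = 0.0119) also fell; Pcsk5 passed the filter on low counts only with the control libraries. Pam, which adds the terminal amide that both peptides need for activity, was singled out after its values were seen. It rose, at 626 ± 18.2 CPM in co-cultured cells and 446 ± 20.8 CPM in controls (SD, n = 3 each; 0.49 ± 0.07, edgeR adjusted p = 0.00617). Cpd, another carboxypeptidase, did not pass, at 143 ± 7.09 CPM in co-cultured cells and 166 ± 8.89 CPM in controls (edgeR adjusted p = 0.0793), but passed once control library 4 was dropped (edgeR adjusted p = 0.00342). The Pcsk5 call was lost with co-culture 2 or 3 left out (edgeR adjusted p = 0.0538 and 0.0536), and 3, 3, 2 and 3 genes of the list fell on leaving out co-culture libraries 1, 2 and 3 and control library 6.

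Below the receptor, of 15 Gs protein and adenylyl cyclase genes, 2 rose, 1 fell and 12 did not pass. Gnas, the Gs alpha subunit, was at 1080 ± 7.64 CPM in co-cultured cells and 1057 ± 90.4 CPM in controls (SD, n = 3 each; 0.03 ± 0.09, edgeR adjusted p = 0.83), and its sign turned without control library 4. The cyclases differed among themselves. Adcy8, a calcium-stimulated adenylyl cyclase, fell to 5.31, 9.05 and 8.71 CPM in co-culture, against 18.1, 23.6 and 20.1 CPM in controls (-1.42 ± 0.21, edgeR adjusted p = 0.00578). Adcy4 rose, at 9.16, 11.3 and 9.46 CPM in co-culture against 4.51, 4.18 and 4.83 CPM in controls (1.141 ± 0.1253, edgeR adjusted p = 0.00169). Adcy1 rose by 0.77 ± 0.16 (edgeR adjusted p = 0.0196), a call lost on leaving out co-culture library 1 or 3 or control library 5 (edgeR adjusted p = 0.0699, 0.0762 and 0.0636). With control library 4 dropped, 2 genes of the list fell.

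Of 11 tested genes of protein kinase A, its inhibitors and the cyclic AMP exchange factors, 2 rose, 3 fell and 6 did not pass. Pkig, an inhibitor of protein kinase A, fell by 0.80 ± 0.10 on the log2 scale (SE; edgeR adjusted p = 0.00297), and the related inhibitor Pkia fell by 0.83 ± 0.22 (edgeR adjusted p = 0.0404). Among the regulatory subunits, Prkar1b rose by 0.63 ± 0.11 (edgeR adjusted p = 0.00815), Prkar2a fell by 0.42 ± 0.08 (edgeR adjusted p = 0.016), and the most abundant, Prkar1a, did not pass (-0.14 ± 0.07, edgeR adjusted p = 0.215) but passed once control library 4 was dropped (edgeR adjusted p = 0.0478). The Prkar2a call was lost without any one library other than control library 4 (edgeR adjusted p = 0.07, 0.063 and 0.0526 once co-culture 1, 2 or 3 was left out, and 0.0536 and 0.0744 without control libraries 5 and 6). The edgeR adjusted p of Pkia was 0.0769, 0.0978 and 0.0979 with co-culture 1, 2 or 3 left out and 0.0954 with control library 6 left out, so its call was lost there. In that list 1 gene, not 2, rose with DESeq2 and on leaving out any one library other than control library 4. The number that fell was 1 on leaving out any co-culture library or control library 6, and 5 on leaving out control library 4.

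Phosphodiesterases, which break down cyclic nucleotides, moved both ways: of 14 tested, 1 rose, 5 fell and 8 did not pass. Pde4d, which is specific for cyclic AMP, was at 8.64, 8.99 and 8.39 CPM in co-culture against 18.2, 22.6 and 21.6 CPM in controls, and fell by 1.26 ± 0.11 on the log2 scale (SE; edgeR adjusted p = 7.23e-04). Pde8b fell by 1.36 ± 0.17 (edgeR adjusted p = 0.00255) and Pde7b by 0.88 ± 0.13 (edgeR adjusted p = 0.00533). Pde1a, which calcium and calmodulin activate, was at 38.5, 36.8 and 34.1 CPM in co-culture against 18.8, 16.1 and 19.3 CPM in controls and rose by 1.01 ± 0.10 (edgeR adjusted p = 0.00112). The most abundant one that did not pass was Pde7a (0.18 ± 0.09, edgeR adjusted p = 0.194). With control library 4 dropped, 2 genes of the list rose.

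Of 8 tested genes for receptor kinases, arrestins and Ramp trafficking, 1 rose, 2 fell and 5 did not pass. Slc9a3r1, a scaffold protein known to bind Ramp3, rose, at 19.5, 19.3 and 18.1 CPM in co-culture against 11.8, 11.5 and 12.9 CPM in controls (0.66 ± 0.09, edgeR adjusted p = 0.00369). The receptor kinases Grk5 (-0.34 ± 0.10, edgeR adjusted p = 0.0481) and Grk6 (-0.31 ± 0.07, edgeR adjusted p = 0.024) fell with all libraries, but DESeq2 called neither, and both calls were lost without any one library other than control library 4. With co-culture 1, 2 and 3 and control 5 and 6 each left out in turn, edgeR adjusted p was 0.0647, 0.157, 0.168, 0.0774 and 0.16 for Grk5 and 0.0982, 0.0795, 0.0983, 0.074 and 0.12 for Grk6. On leaving out control library 4, 4 genes of the list fell. Grk2 did not pass (edgeR adjusted p = 0.334) but passed once control library 4 was dropped (edgeR adjusted p = 0.0352).

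Genes known to respond to cyclic AMP also moved both ways. Of 12 tested, 1 rose, 5 fell and 6 did not pass. Rgs2, which dampens G-protein signalling, was at 12.4, 12.5 and 13.9 CPM in co-culture against 74.4, 51.0 and 47.0 CPM in controls, and fell by 2.15 ± 0.19 on the log2 scale (SE; edgeR adjusted p = 7.14e-04). The nuclear receptor genes Nr4a1 (-0.87 ± 0.14, edgeR adjusted p = 0.00669) and Nr4a3 (-1.47 ± 0.31, edgeR adjusted p = 0.0196) fell, and Nr4a3 passed the filter on low counts only with the control libraries. Sik1, a kinase that restrains the cyclic AMP response, rose, at 23.0, 19.8 and 21.0 CPM in co-culture against 10.3, 12.9 and 12.3 CPM in controls (0.84 ± 0.12, edgeR adjusted p = 0.00404). The clock gene Per1 did not pass (0.07 ± 0.11, edgeR adjusted p = 0.674). The Nr4a3 call was lost on leaving out co-culture library 2 or 3 or control library 6 (edgeR adjusted p = 0.0717, 0.0838 and 0.0614), and 3 genes of the list fell on leaving out co-culture library 3 or control library 6. Many of these genes also respond to signals other than cyclic AMP.

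Adm is known to be induced by hypoxia, and hypoxia genes moved both ways. Of 11 tested, 4 rose, 3 fell and 4 did not pass. Ndrg1, a stress-response gene, was at 79.0, 74.5 and 73.8 CPM in co-culture against 20.8, 25.7 and 26.8 CPM in controls and rose by 1.63 ± 0.11 on the log2 scale (SE; edgeR adjusted p = 2.42e-04). Pdk1, which limits pyruvate entry into mitochondria, rose by 1.30 ± 0.10 (edgeR adjusted p = 5.27e-04), and Hif1a, a hypoxia-inducible factor subunit, by 0.70 ± 0.08 (edgeR adjusted p = 0.00184). Epas1, another such subunit, fell by 0.68 ± 0.15 (edgeR adjusted p = 0.02), a call lost on leaving out co-culture library 3 or control library 5 or 6 (edgeR adjusted p = 0.0713, 0.0634 and 0.061). Without each of those 3 libraries, 1 gene of the list fell. Bnip3 did not pass (-0.46 ± 0.20, edgeR adjusted p = 0.149) but passed once control library 4 was dropped (-0.18, edgeR adjusted p = 0.017). Pfkfb3 also rose (0.61 ± 0.07, edgeR adjusted p = 0.0025). Slc2a1 (-0.38 ± 0.07, edgeR adjusted p = 0.00942) and Egln3 (-0.64 ± 0.15, edgeR adjusted p = 0.0288) also fell with all libraries. Vegfa did not pass (-0.02 ± 0.11, edgeR adjusted p = 0.925).

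**Figure D5:**
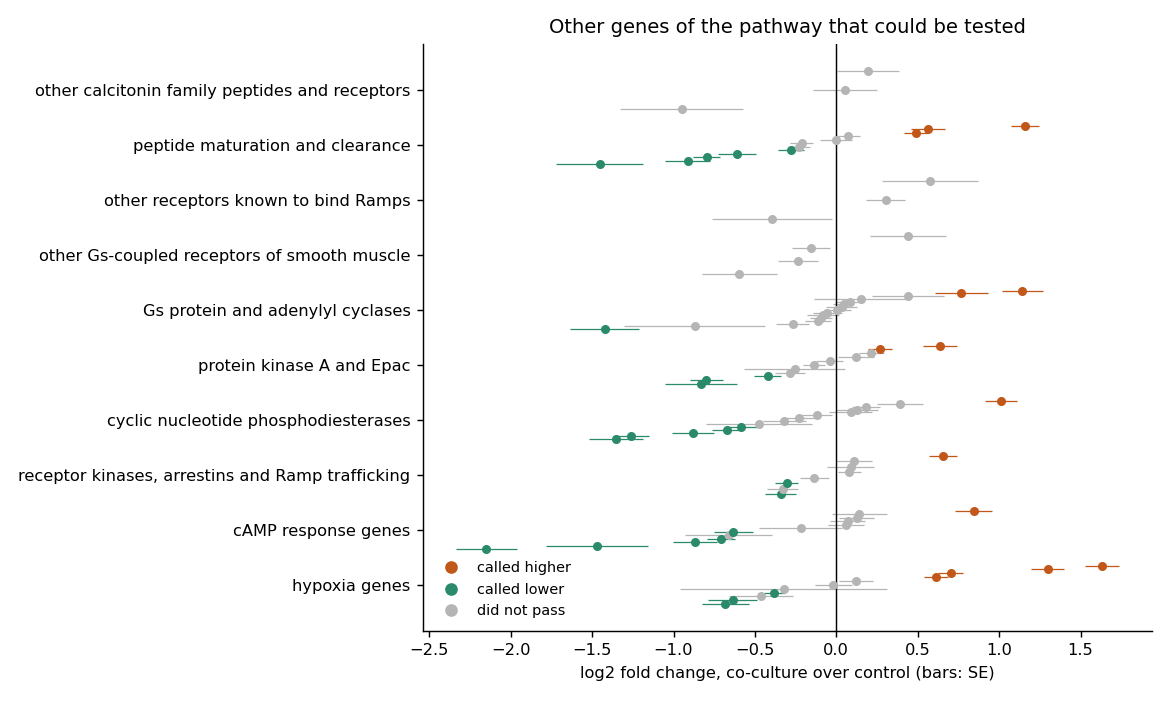
Log2 fold change, co-culture over control (x axis; bars are SE), of the 93 tested genes of the 10 pathway lists (rows), coloured by call. The 14 called higher and 24 called lower are spread over 7 lists, and the 3 lists of related peptides and receptors hold none.

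Markers of other cell types are given because Calcb is a neuroendocrine and neuronal gene elsewhere and Calcrl, Ramp2 and Adm are endothelial genes elsewhere. The summed level of 7 neuroendocrine and neuronal markers was 24.8 to 27.4 CPM in co-cultured cells and 27.8 to 38.7 CPM in controls, most of it from Uchl1, without which the groups overlapped. Among the 3 tested, Scg2 was called lower, with 5, 4 and 7 counts in co-culture against 15, 15 and 20 counts in controls. It passed the filter on low counts only through the control libraries. Uchl1 and Syp did not pass. Syp went the other way, with 27, 17 and 18 counts in co-culture against 10, 14 and 14 counts in controls (edgeR adjusted p = 0.145). Insm1 had 1, 1 and 0 counts in co-culture and 0 counts in each control library. Snap25 went the other way, with 1, 2 and 0 counts in co-culture against 6, 2 and 7 in controls, and both were too low to test. The summed level of 10 endothelial markers was 10.3 to 10.6 CPM in co-cultured cells and 13.7 to 15.2 CPM in controls. That gap rests on Lyve1: without it the sum was 9.32 to 9.89 CPM in co-cultured cells and 9.02 to 10.6 CPM in controls, which overlap. Of the 4 tested, Lyve1 fell (-2.47, edgeR adjusted p = 0.00166), and Pecam1 did not pass, with 12, 13 and 20 counts in co-culture and 10, 14 and 14 in controls. Tie1 had 1, 0 and 2 counts in co-culture and 0 counts in each control library. Emcn had 2, 4 and 2 counts in co-culture against 10, 12 and 8 in controls, and Prox1 4, 5 and 5 against 6, 8 and 9. Both were lower in CPM in every co-culture library, whereas Cdh5, Tek and Vwf overlapped between the groups. All of these were too low to test. Summed smooth muscle markers were at 104 to 154 CPM in co-cultured cells and 209 to 247 CPM in controls, and of the 7 tested Acta2, Tagln and Cnn1 were called lower. Myh11, Myl9, Actg2 and Lmod1 did not pass. Lmod1 went the other way, at 36.9, 34.1 and 35.1 CPM in co-culture against 22.9, 28.3 and 33.1 CPM in controls (edgeR adjusted p = 0.131). Cnn1 had 8, 10 and 6 counts in co-culture against 12, 19 and 17 counts in controls and passed the filter only through the control libraries. Among the smooth muscle markers Myh11 had only 15 to 18 counts in co-culture and 11 to 28 in controls, and Des 6 to 11 counts in co-culture and 4 to 9 in controls. Summed fibroblast markers were at 4700 to 5108 CPM in co-cultured cells and 4886 to 6245 CPM in controls, most of it Col1a1. Over the other 5 fibroblast markers the sum was 1451 to 1497 CPM in co-cultured cells and 1222 to 1388 CPM in controls, so the order of the groups turned. Among the fibroblast markers Dpt rose (0.98, edgeR adjusted p = 0.00912) and Tcf21 fell (-0.99, edgeR adjusted p = 0.0415). Summed epithelial markers were at 3.54 to 4.74 CPM in co-cultured cells and 2.66 to 3.41 CPM in controls, and without Muc1 the groups overlapped. Muc1, the only epithelial marker tested, was called higher (0.71, edgeR adjusted p = 0.0347). Elf3 had 2, 5 and 2 counts in co-culture and 0 counts in each control library, and Foxj1 3, 4 and 3 against 1, 1 and 1. Krt19 went the other way, with 4, 7 and 7 counts in co-culture against 9, 11 and 8 in controls. The other epithelial markers overlapped between the groups. Summed leukocyte markers were at 47.4 to 53.3 CPM in co-cultured cells and 64.4 to 116 CPM in controls, highest in control library 4. Most of it was Lyz2, which did not pass (edgeR adjusted p = 0.0781). Without Lyz2 the sum was 10.4 to 10.6 CPM in co-cultured cells and 12.7 to 14.7 CPM in controls. Csf1r was called lower (-1.39, edgeR adjusted p = 0.00562), while Adgre1 and Itgam overlapped between the groups. Cd68 did not pass (edgeR adjusted p = 0.0905) and Ptprc was too low to test, but both were lower in CPM in every co-culture library. Summed pericyte markers, mostly Pdgfrb, overlapped between the groups. Without Pdgfrb the sum was 38.95 to 58.3 CPM in co-culture and 60.55 to 72.29 CPM in controls. Rgs5 was called lower (-1.67, edgeR adjusted p = 0.00119). Kcnj8, called higher (1.69, edgeR adjusted p = 0.0246), passed the filter only through the co-culture libraries. Mesothelial sums, mostly Msln, were 0.8274 to 1.458 CPM in co-culture and 1.486 to 1.668 CPM in controls, and Msln did not pass. The part of any of these cell types in the differences described was not tested.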

How the data were processed

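Per the labels' protocols, RNA was taken from cells in Trizol and reads were aligned with HISAT. The submitters' processing notes name mm10 as the build. No label or header used here states the counting program, its version or strandedness. The deposited tables hold the authors' estimated counts per gene and per RefSeq transcript, and the authors' FPKM, which the file headers name as such. Control columns are numbered 4 to 6 and the labelled controls 1 to 3, so they were assigned to their group only. Separately, 21 deposited columns of FPKM and TPM were not used here.

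Counts were rounded and tested with edgeR 4.0.16 (R 4.3.3): filterByExpr, TMM factors, quasi-likelihood test, two-sided, Benjamini-Hochberg adjusted over 12936 genes. A gene was called at an adjusted p under 0.05. The SE of a fold change is its size divided by the square root of F. The p-values cover no more than the spread among these libraries. FPKM and TPM were computed from counts and the lengths implied by co-culture counts and FPKM. Computed and deposited FPKM differed by a median of 0.00514 on the log2 scale, over co-culture values above a low limit. The lengths came from those same values, so this is no check on the controls. In controls the computed means were 5.94 FPKM for Calcb and 0.589 FPKM for Ramp1, against deposited means of 7.64 and 0.297 FPKM. For Adm, Calcrl, Ramp2 and Ramp3 both control means were close. Gene IDs were matched to RefSeq for 16975 genes. DESeq2 1.42.0, other filters and scalings, and leaving out each library were tried as alternatives. Both added scalings of the members (no TMM factors, TPM) were chosen after seeing the data.

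The members, the lists and the tests were chosen with earlier results of these data known. The genes named are the members, up to 4 called genes per list with the largest change, the most abundant that did not pass, and 3 nearest in pattern per member. Pam, Calca, Ackr3, Calcr, Pfkfb3, Slc2a1, Egln3, Vegfa and the cell type markers named fall outside this rule and were chosen after their values were seen.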

Additional observations from a re-analysis of the deposited data

How the results depend on the processing

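No paired analysis was possible because the control columns are numbered 4 to 6 and cannot be matched to the replicate numbers in the labels. Over all genes, 612 to 2445 were called higher and 598 to 2598 lower with a library left out, and both highest counts came without control library 4; without each other library the counts higher and lower were 668 and 615 (co-culture 1), 705 and 635 (co-culture 2), 612 and 598 (co-culture 3), and 829 and 774 (control 5), and the count lower without control 6 was 761. Other pathway genes called higher numbered 11 to 16 and lower 13 to 33. The members kept their direction under every setting that gave a value. With a library left out, log2 fold changes ran from -4.703 to -3.864 (Calcb), -0.4065 to -0.2542 (Adm), -1.464 to -1.241 (Calcrl), -2.356 to -1.368 (Ramp1), -0.3226 to -0.1645 (Ramp2) and 0.2976 to 0.4411 (Ramp3). In computed TPM, Adm was at -0.1529, Ramp2 at -0.0734 and Ramp3 at 0.5478. The cause was not tested. TMM factors were 1.04 in each co-culture library and lowest, at 0.885, in control library 4. Crcp turned to -0.0575, -0.0636 and -0.0184 without co-culture library 2 and control libraries 5 and 6, and Gnas to -0.0344 and Per1 to -0.0366 without control library 4. With a library left out, their highest values were 0.2895 (Crcp), 0.08514 (Gnas) and 0.1363 (Per1). None of these 3 genes was called with all libraries. Ramp1 fell under a filter on a mean of 10 counts, so it has no value there. The Ramp3 to Ramp2 ratio was the same in TPM. Depth limits Ramp1, Calca and the receptors too low to test.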
